A study of Mus musculus with 6 samples.

Results

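The genes described here are 37 megakaryocyte and platelet genes, chosen by name for what they are known to do. They comprise 6 transcription factors, 14 surface receptors, 8 granule and secreted proteins and 9 signalling, cytoskeletal and secretion genes. All 37 had a probe on the array, and 36 were measured, among 21800 genes tested in all. The remaining gene, P2ry12, which encodes a platelet receptor for ADP, had 1 probe, which no array of the 6 read well above background. RNA came from mouse hearts at embryonic day 9.5, a dissection that took the heart tube with the underlying pharyngeal tissue, both its mesoderm and its endoderm. Of 6 samples, 3 were pools of 4 wild-type embryos and 3 were pools of 4 Arid3b-null embryos, and each pool was hybridised to 1 single-colour Agilent array. Strain, and how the null allele was made, are not given in the sources used here, and the labels name no cell type to which the loss is limited.

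Megakaryocytes are the large blood cells that shed platelets. In the mouse embryo the first of them arise in the yolk sac, as do the first red cells. A small set of transcription factors, among them GATA1 with its partner FOG1 (gene Zfpm1), RUNX1, FLI1, GFI1B and NF-E2, switches on the genes for platelet receptors, granule contents and the machinery of platelet release. In bulk samples of this kind, more cells of a type and more RNA per cell cannot be told apart.

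To show DNA upstream of genes that moved together, the 250 bases before the annotated transcription start are printed for 6 members whose window touched no annotated gene. They cover the chemokines with the largest changes (Ppbp and Pf4), a receptor of the von Willebrand factor complex (Gp5), the platelet integrin chain (Itga2b), a granule protein (Mmrn1) and the platelet tubulin (Tubb1). Sequences are from RefSeq, build GRCm38.p6, 5′ to 3′ on the gene's strand. Capitals mark GATA motifs (AGATAA or TGATAA, either strand) and an ETS motif (AGGAAG, either strand), and these did not overlap.
Pf4, chr5:90772185-90772434 (plus strand): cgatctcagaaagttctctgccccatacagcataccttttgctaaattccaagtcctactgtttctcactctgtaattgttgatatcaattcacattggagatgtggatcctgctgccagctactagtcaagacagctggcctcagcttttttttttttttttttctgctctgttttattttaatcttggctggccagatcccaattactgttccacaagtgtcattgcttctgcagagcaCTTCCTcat
Ppbp, chr5:90768268-90768517 (plus strand): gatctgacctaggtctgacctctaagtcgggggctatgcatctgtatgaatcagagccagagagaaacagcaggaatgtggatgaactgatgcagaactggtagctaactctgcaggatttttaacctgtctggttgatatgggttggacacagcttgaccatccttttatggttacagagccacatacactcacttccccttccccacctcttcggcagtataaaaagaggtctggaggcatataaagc
Gp5, chr16:30310782-30311031 (minus strand): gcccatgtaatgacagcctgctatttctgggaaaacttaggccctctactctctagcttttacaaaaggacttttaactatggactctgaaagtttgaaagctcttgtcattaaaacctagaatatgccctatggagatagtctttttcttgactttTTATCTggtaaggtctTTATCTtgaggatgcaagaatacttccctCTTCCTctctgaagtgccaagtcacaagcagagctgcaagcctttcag
Itga2b, chr11:102469884-102470133 (minus strand): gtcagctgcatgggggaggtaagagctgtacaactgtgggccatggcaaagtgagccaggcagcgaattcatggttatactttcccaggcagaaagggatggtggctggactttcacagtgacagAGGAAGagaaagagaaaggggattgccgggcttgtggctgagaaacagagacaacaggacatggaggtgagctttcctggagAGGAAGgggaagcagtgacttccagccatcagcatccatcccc
Mmrn1, chr6:60944067-60944316 (plus strand): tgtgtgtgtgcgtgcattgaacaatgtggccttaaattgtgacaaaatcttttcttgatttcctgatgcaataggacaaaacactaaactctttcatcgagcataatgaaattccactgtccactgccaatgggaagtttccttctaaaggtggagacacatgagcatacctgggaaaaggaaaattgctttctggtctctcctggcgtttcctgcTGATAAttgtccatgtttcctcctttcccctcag
Tubb1, chr2:174450345-174450594 (plus strand): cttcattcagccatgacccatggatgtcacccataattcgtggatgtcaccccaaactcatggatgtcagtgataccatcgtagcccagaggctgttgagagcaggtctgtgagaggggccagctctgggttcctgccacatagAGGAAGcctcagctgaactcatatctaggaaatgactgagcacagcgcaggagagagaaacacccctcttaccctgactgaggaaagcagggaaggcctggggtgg

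Gp5 held 2 GATA matches and 1 ETS match, Mmrn1 held 1 GATA match, Itga2b held 2 ETS matches, Pf4 and Tubb1 held 1 ETS match each, and Ppbp held neither. Upstream sequence was found for 31 of the 37 members. The ETS letters occurred in 17 of those 31 (54.8%), against 32.3% of 27025 genes with an upstream sequence of the same length. GATA letters occurred in 8 of 31 (25.8%), against 18.8%. Both kinds stood in 3 members (9.68%), against 6.29% of all genes. A RUNX motif (TGTGGT) was found in 3 members (9.68%, against 15.9%), an NF-E2 motif (TGAGTCA) in 1 (3.23%, against 5.16%) and a TATA motif (TATAAA) in 4 (12.9%, against 14.3%), each on either strand. Ppbp carried 2 of the TATA matches, 30 and 8 bases before its start, and none of them overlapped another motif there. These are matches of letters, not shown sites, and members with several annotated starts were counted if any window matched.

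Levels below are log2 signal relative to the 75th percentile of the same array, and changes are null minus wild type on that scale. The threshold for a call was 0.05 on limma p values, adjusted by Benjamini-Hochberg over every gene tested. Per array, between 27136 and 31039 of 43020 spots were well above background, and the 3 arrays of each group limit the precision of every value. Arid3b itself read 2.91, 3.40 and 3.69 in wild-type pools 1, 2 and 3 and 1.07, 0.52 and 0.45 in null pools 1, 2 and 3, a fall of 6.28-fold (adjusted p = 0.00192). Cardiomyocyte markers were well above background on all arrays, and 1 of 12 rose (8.33%, against 6.60% of all genes), the natriuretic peptide gene Nppa. Prl3d1, a hormone gene of trophoblast giant cells, differed widely between the null pools. It read from -3.30 to -2.99 in the wild-type pools but -3.21, -0.97 and 4.78 in null pools 1, 2 and 3. Each of 3 slides held 1 wild-type and 1 null pool, always in the same places, so place on the slide and genotype cannot be told apart.

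In the null hearts 30 of the 36 measured members rose and 0 fell. The other 6 were all above 0 in their estimated change without passing the test. Over all genes tested 6.60% rose and 3.83% fell, 10.4% in all. The members' median change was 1.89 log2 units, against 0.03 for all genes. Before adjustment, 33 members had p under 0.05 upward and 0 downward. The share of all genes at that unadjusted level was not counted, so this count and those of the lists below stand without it. Null and wild-type pools did not overlap, with the null pools higher, for 33 members, while 18.0% of all genes had that pattern. Of the 36, 35 were well above background on all 6 arrays, so the filter on dim probes left little mark on this count. F2rl2 was the exception, above background on 1 wild-type and 3 null arrays. Among the 100 largest rises of the 21800 genes were 8 members, and among the 500 largest were 27.

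**Figure D1:**
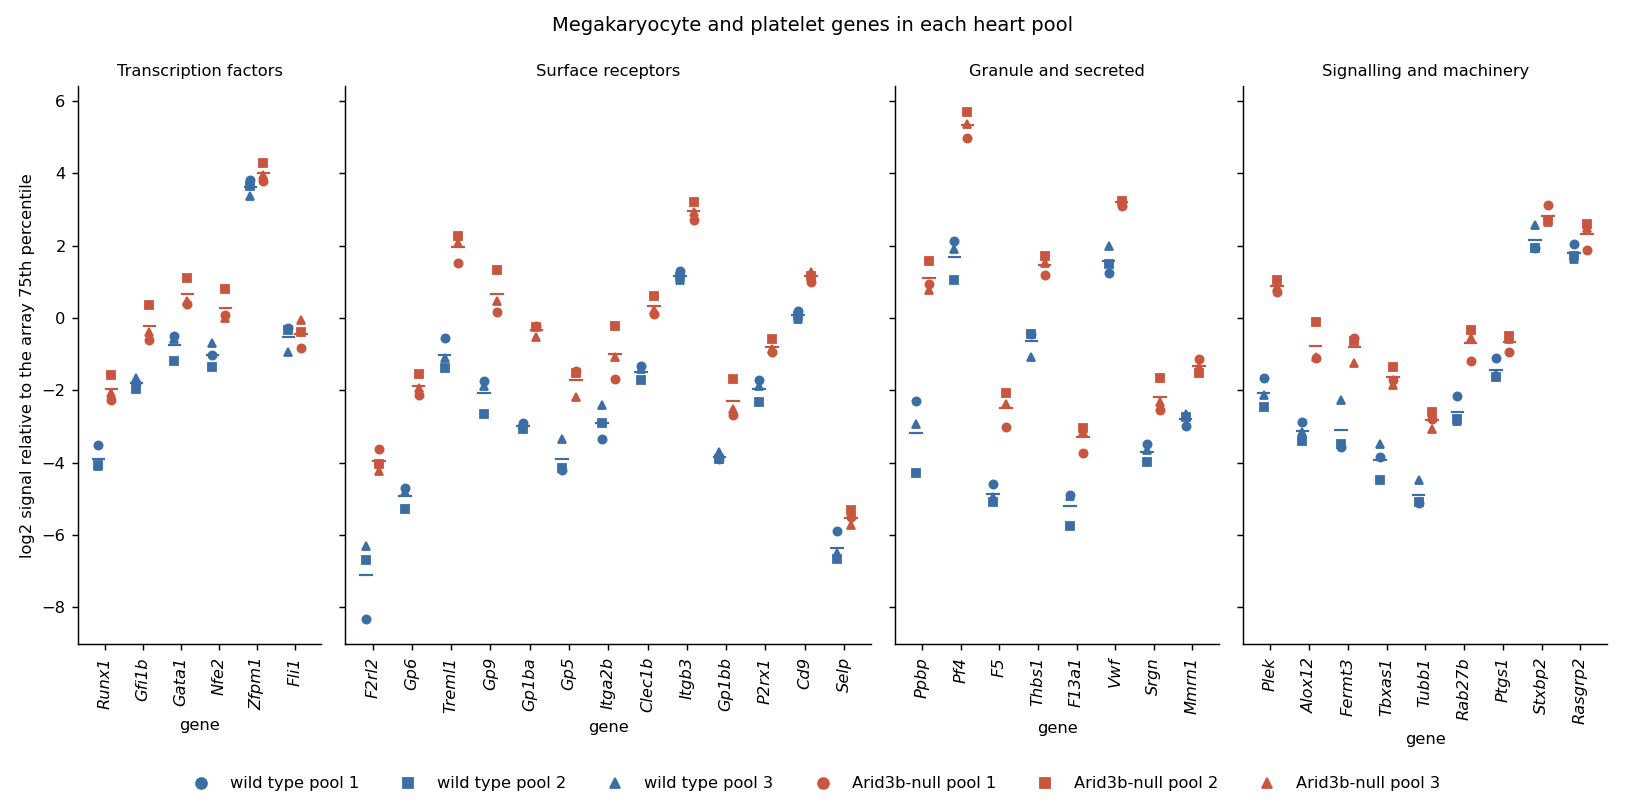
Log2 signal relative to the array 75th percentile for each measured member in each pool, wild type in blue and Arid3b-null in red, with marker shapes for pools 1 to 3 and lines at group means. The groups stand apart for 33 of 36 genes and overlap for Zfpm1, Fli1 and Rasgrp2; heights of different genes come from different probes and are not comparable.

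Among the transcription factors, 4 of 6 rose, with a median of 1.37 over the group. Runx1, a master regulator of blood formation, read -3.53, -4.05 and -4.09 in wild-type pools 1, 2 and 3 and -2.26, -1.58 and -2.09 in the null pools. All null values lay above all wild-type values, a rise of 3.77-fold (log2 1.91, SE 0.24, adjusted p = 0.00501), and its other measured probe gave 2.12. Gfi1b, a repressor needed for megakaryocyte and red cell maturation, read -1.80, -1.97 and -1.66 against -0.62, 0.36 and -0.37 and rose by 1.6 (SE 0.26, adjusted p = 0.0123). The groups did not overlap, and null pool 2 was the highest.

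Gata1, the factor shared by megakaryocytes and red cells, read -0.50, -1.19 and -0.59 in wild-type pools and 0.39, 1.12 and 0.47 in null pools, a rise of 1.42 (SE 0.27, adjusted p = 0.0205). Nfe2, whose product drives platelet release, read -1.02, -1.37 and -0.69 against 0.08, 0.79 and -0.01 and rose by 1.31 (SE 0.27, adjusted p = 0.0263). For both genes, wild-type pool 2 was the lowest array and null pool 2 the highest. Their within-slide differences were 0.89, 2.31 and 1.06 for Gata1 and 1.1, 2.16 and 0.68 for Nfe2 on slides 1, 2 and 3. Blocking on the slide, neither passed (adjusted p = 0.0651 and 0.0785), and 2 of the 6 factors did. Without wild-type pool 2 only Runx1 passed, without null pool 2 only Runx1 and Gfi1b did, and 3 factors passed without wild-type pool 1 or 3.

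The other two factors did not pass. Zfpm1 read 3.82, 3.66 and 3.36 in wild-type pools and 3.80, 4.29 and 3.95 in null pools, with an estimated change of 0.40 (95% interval -0.07 to 0.87, adjusted p = 0.249). Its groups overlapped. Fli1, an ETS factor of both megakaryocytes and endothelium, read -0.28, -0.32 and -0.94 against -0.83, -0.40 and -0.07, an estimate of 0.08 (95% interval -0.54 to 0.70, adjusted p = 0.878). The sign of the Fli1 estimate turned under median scaling, as given in the closing section.

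Of the 13 measured surface receptors 12 rose, with a median of 1.89, and the groups did not overlap for any of the 13. The complex that binds von Willebrand factor on platelets is built from the products of Gp1ba, Gp1bb, Gp9 and Gp5, and all 4 rose. Gp1ba read -2.90, -3.07 and -2.95 in wild-type pools and -0.23, -0.24 and -0.52 in null pools, from -2.98 ± 0.09 to -0.33 ± 0.16 (SD, n = 3). Its rise of 6.27-fold (log2 2.65, SE 0.16, adjusted p = 0.000315) had the smallest adjusted p among the members. Gp9 read -1.73, -2.65 and -1.88 against 0.18, 1.32 and 0.48, a rise of 6.71-fold (log2 2.75, SE 0.36). Null pool 2 was highest and wild-type pool 2 lowest for Gp9, whereas the null pools of Gp1ba lay close together. Gp5 rose by 2.17 (SE 0.30) and Gp1bb by 1.54 (SE 0.27, adjusted p = 0.015). Gp1bb had 3 probes, of which 1 was measured, and its call ended without wild-type pool 2 (adjusted p = 0.0678).

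Platelets bind collagen through GPVI, the product of Gp6. Its probe read -4.69, -5.29 and -4.82 in wild-type pools and -2.12, -1.56 and -1.94 in null pools, a rise of 8.35-fold (log2 3.06, SE 0.23, adjusted p = 0.000769). Clec1b, which encodes the podoplanin receptor CLEC-2, rose by 1.80 (SE 0.20, adjusted p = 0.00287), and its 3 probes gave from 1.6 to 2.01. Treml1, a receptor of the granule membrane, read -0.54, -1.39 and -1.11 against 1.53, 2.26 and 2.08 and rose by 2.97 (SE 0.28, adjusted p = 0.00167). For each of these 3 genes every null pool exceeded every wild-type pool.

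Integrin alphaIIb-beta3 is the fibrinogen receptor of platelets. Its beta chain Itgb3 read 1.29, 1.13 and 1.06 in wild-type pools and 2.72, 3.20 and 2.94 in null pools, a rise of 3.47-fold (log2 1.80, SE 0.18, adjusted p = 0.00203). The alpha chain Itga2b, the earliest marker of the lineage, read -3.36, -2.92 and -2.42 against -1.70, -0.23 and -1.09. The groups again did not overlap, and the rise of 1.89 (SE 0.40, adjusted p = 0.027) came with the widest spread among null pools of any member (SD 0.74). Leaving out any 1 pool other than null pool 1 ended the Itga2b call, with an adjusted p of up to 0.0961.

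The remaining receptors measured were F2rl2, P2rx1, Cd9 and Selp, of which Selp did not pass. F2rl2, the thrombin co-receptor PAR3, read -8.33, -6.70 and -6.31 in wild-type pools and -3.62, -4.04 and -4.23 in null pools, a rise of 3.15 (SE 0.49, adjusted p = 0.00995). The F2rl2 log2 change was 0.95 with normexp background correction and 2.54 without wild-type pool 1, both past the threshold. P2rx1, an ATP-gated channel, rose by 1.17 (SE 0.21, adjusted p = 0.0161), and its call ended when the slide was a block (adjusted p = 0.071) and without wild-type pool 2 or null pool 2. The tetraspanin Cd9, which many cell types express, rose by 1.06 (SE 0.16, adjusted p = 0.00843), and that call ended when the slide was a block (adjusted p = 0.0662). Selp, P-selectin of platelet and endothelial granules, read -5.88, -6.67 and -6.50 against -5.50, -5.32 and -5.74, an estimate of 0.83 (95% interval 0.27 to 1.39) that did not pass (adjusted p = 0.0706).

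All 8 granule and secreted members rose, with a median of 2.01 and no overlap between groups. Ppbp, the precursor of platelet basic protein and a neutrophil-attracting chemokine, had the largest change of any member. It read -2.31, -4.28 and -2.94 in wild-type pools and 0.93, 1.58 and 0.77 in null pools, a rise of 19.4-fold (log2 4.28, SE 0.49, adjusted p = 0.00324). Its spread in wild type was wide (SD 1.01), with pool 2 the lowest, and with normexp background correction the log2 change was 3.37. Pf4, platelet factor 4, whose promoter stands beside that of Ppbp on chromosome 5, read 2.12, 1.05 and 1.92 against 4.99, 5.70 and 5.36. This was a rise of 12.6-fold (log2 3.65, SE 0.32, adjusted p = 0.00132), and on slides 1, 2 and 3 the null pool exceeded its neighbour by 2.87, 4.66 and 3.43.

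Adhesive and clotting proteins followed. Vwf, von Willebrand factor, which endothelium also makes, read 1.26, 1.5 and 1.99 in wild-type pools and 3.1, 3.25 and 3.24 in null pools, a rise of 3.07-fold (log2 1.62, SE 0.21, adjusted p = 0.00572). The null pools of Vwf agreed closely (SD 0.08). Thbs1, thrombospondin, read -0.44, -0.44 and -1.07 against 1.19, 1.73 and 1.52 and rose by 2.13 (SE 0.24, adjusted p = 0.0031). F5, coagulation factor V, rose by 2.38 (SE 0.27, adjusted p = 0.00319), with 2.09 on its other probe, and Mmrn1, multimerin, which binds factor V, by 1.46 (SE 0.17, adjusted p = 0.00398). F13a1, the subunit of the clot-linking transglutaminase, rose by 1.89 (SE 0.29, adjusted p = 0.00988), and Srgn, serglycin, the proteoglycan that holds granule contents, by 1.53 (SE 0.26, adjusted p = 0.0138). Only the Srgn call ended without 1 pool, wild-type pool 2 (adjusted p = 0.0643).

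Of the 9 signalling and machinery genes 6 rose, with a median of 2.07. Plek, pleckstrin, the main protein kinase C substrate of platelets, read -1.67, -2.45 and -2.14 in wild-type pools and 0.71, 1.05 and 0.86 in null pools, a rise of 7.79-fold (log2 2.96, SE 0.23, adjusted p = 0.000896). Tubb1, the beta-tubulin of the platelet marginal band, read -5.11, -5.08 and -4.49 against -2.80, -2.60 and -3.06 and rose by 2.07 (SE 0.22, adjusted p = 0.00274). Rab27b, a small GTPase of granule transport, rose by 1.91 (SE 0.29, adjusted p = 0.00866), with 1.89 on its other probe. Fermt3, kindlin-3, an integrin activator, read -3.56, -3.49 and -2.28 in wild-type pools and -0.54, -0.64 and -1.25 in null pools. It rose by 2.30 (SE 0.37, adjusted p = 0.0115), a call that ended without wild-type pool 2 (adjusted p = 0.0548).

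Enzymes that turn arachidonic acid into platelet mediators did not all pass. Alox12, the platelet 12-lipoxygenase, rose by 2.37 (SE 0.30, adjusted p = 0.00507). Its other probe gave 3.49 but was well above background on only 1 wild-type array, which limits that value. Tbxas1, thromboxane synthase, rose by 2.29 (SE 0.28, adjusted p = 0.00441). Ptgs1, cyclooxygenase-1, which acts one step before Tbxas1 and is made by many cells, read -1.10, -1.64 and -1.55 against -0.94, -0.51 and -0.59, an estimate of 0.75 (95% interval 0.27 to 1.24, adjusted p = 0.0629). Its groups did not overlap, yet it did not pass. Rasgrp2, a Rap activator upstream of the integrin, had an estimate of 0.53 (95% interval -0.02 to 1.08, adjusted p = 0.202), and Stxbp2, a secretion protein also active in other cells, had 0.68 (95% interval 0.14 to 1.23, adjusted p = 0.112). A second probe of Stxbp2 gave -0.03, so its probes disagreed. In the other 8 members with more than 1 measured probe, all probes gave a positive change.

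**Figure D2:**
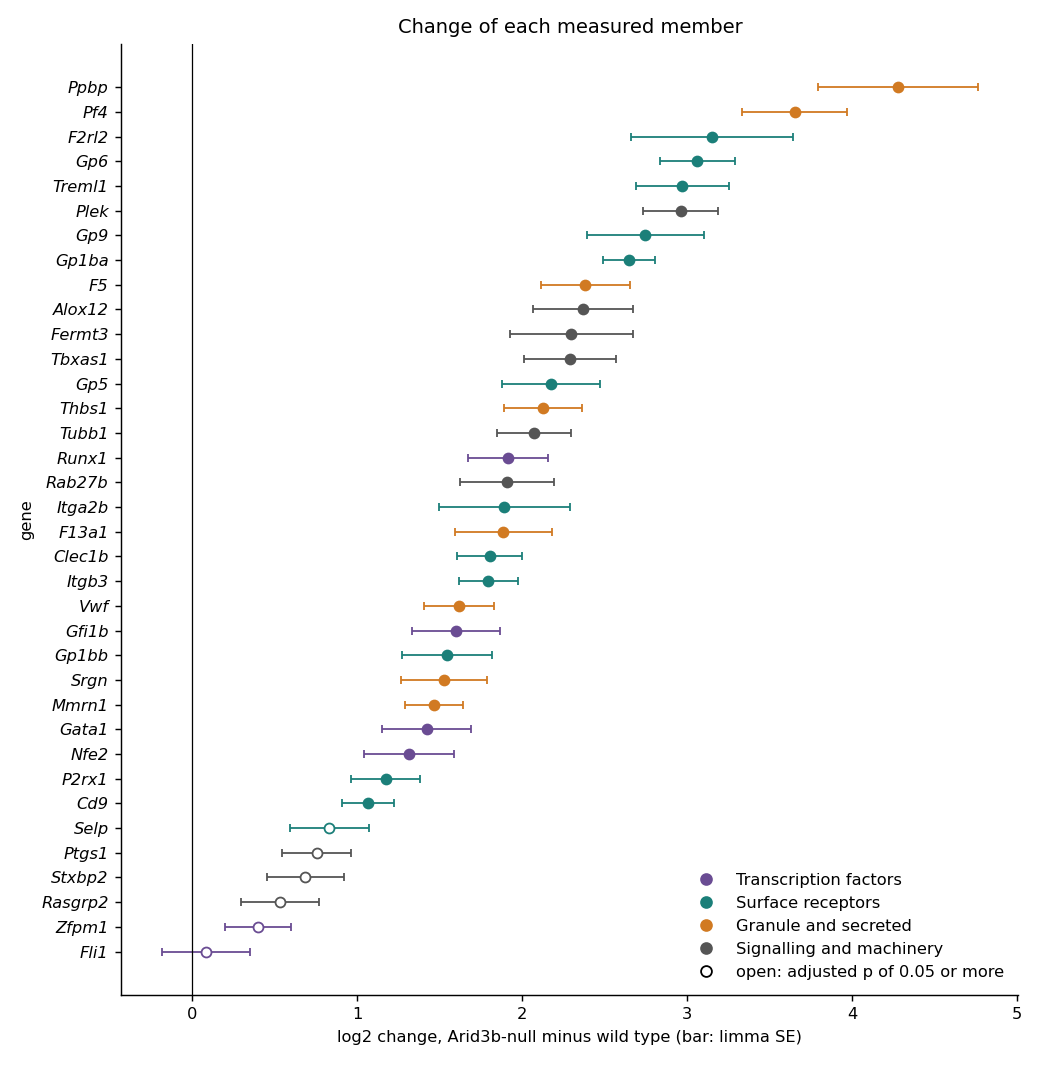
Log2 change of each measured member (Arid3b-null minus wild type, n = 3 pools each) with its limma SE, coloured by role and filled where the adjusted p was under 0.05. The 30 filled points run from 1.06 (Cd9) to 4.28 (Ppbp), and the 6 open points from 0.08 (Fli1) to 0.83 (Selp).

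The size of the difference varied between slides. The median difference of the members was 1.5, 2.39 and 1.38 on slides 1, 2 and 3, against -0.11, 0.09 and 0.13 for all genes. It was positive for 33, 35 and 36 of the 36 members. Slide 2 gave the largest difference for 27 of them. Null pool 2 was the highest null pool for 28 members and wild-type pool 2 the lowest wild-type pool for 20, so both pools of that slide lay outward. With the slide as a block, 26 members rose, where 2.44% of all genes rose. Without wild-type pool 2 there were 22, without null pool 2 there were 26, and without null pool 3, the pool high in Prl3d1, there were 29. Among all genes tested, those that rose numbered 591, 590 and 761 in these fits, against 1439 with every pool. Wherever 1 pool was left out, 0 members fell.

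Other genes of the platelet pathway, taken as a list of 81 by function, were measured for 77. Of these 22 rose (28.6%) and 1 fell, with a median of 0.44, and 15 rose with the slide as a block. Over all genes tested 6.60% rose and 3.83% fell, and 2.44% rose with the slide as a block. The fallen gene was Myb, a factor of immature progenitors (-1.39, SE 0.21, adjusted p = 0.00855). Among 15 regulators 1 rose, a share (6.67%) close to that of all genes. It was the stem cell factor receptor Kit, which read -0.64, -0.08 and -0.15 in wild-type pools and 1.35, 0.86 and 0.77 in null pools (1.29, SE 0.23, adjusted p = 0.0167). Its call ended when the slide was a block (adjusted p = 0.065). Gata2, Tal1, Lmo2 and Lyl1, blood factors that also act outside the megakaryocyte, had estimates of 0.13, 0.33, 0.17 and 0.50, and none passed.

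Of the 22 measured signalling genes of that list 7 rose. They included the Tec kinase Btk (2.53, SE 0.17), the protein kinase C isoform Prkcq (2.58, SE 0.18), the adaptor Fyb (2.98, SE 0.23, well above background on 2 of 3 wild-type arrays), the exchange factor Vav1 (2.31, SE 0.18), the G-protein regulator Rgs18 (2.71, SE 0.25) and the adaptor Lat (1.37, SE 0.18), with adjusted p values from 0.000531 to 0.00607. Among 17 further receptors 6 rose, including the ADP receptor P2ry1 (1.54, SE 0.17, adjusted p = 0.00274), the adrenaline receptor Adra2a (1.26, SE 0.18, adjusted p = 0.00799) and Fcer1g, the signalling partner of GPVI (1.91, SE 0.26, adjusted p = 0.00648). The thromboxane receptor Tbxa2r (-0.05, adjusted p = 0.924) and the thrombin receptors F2r (0.51, adjusted p = 0.21) and F2rl3 (0.89, adjusted p = 0.0994) did not pass. No wild-type array read Cd226, an adhesion receptor, well above background, so it passed the probe filter through the null arrays alone. The null pools were at least 3.15-fold higher, a bound without a p value of its own. The counts of 6 receptors and of 22 pathway genes that rose include Cd226. Of 23 granule and cytoskeletal genes 8 rose, among them the chemokine Cxcl5 (2.89, SE 0.16, adjusted p = 0.000297) and the growth factor Pdgfb (2.01, SE 0.23, adjusted p = 0.00315). Blocking on the slide left 4 of those 8, and Clu, Slc18a2, Myh9 and Tgfb1 no longer passed.

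**Figure D3:**
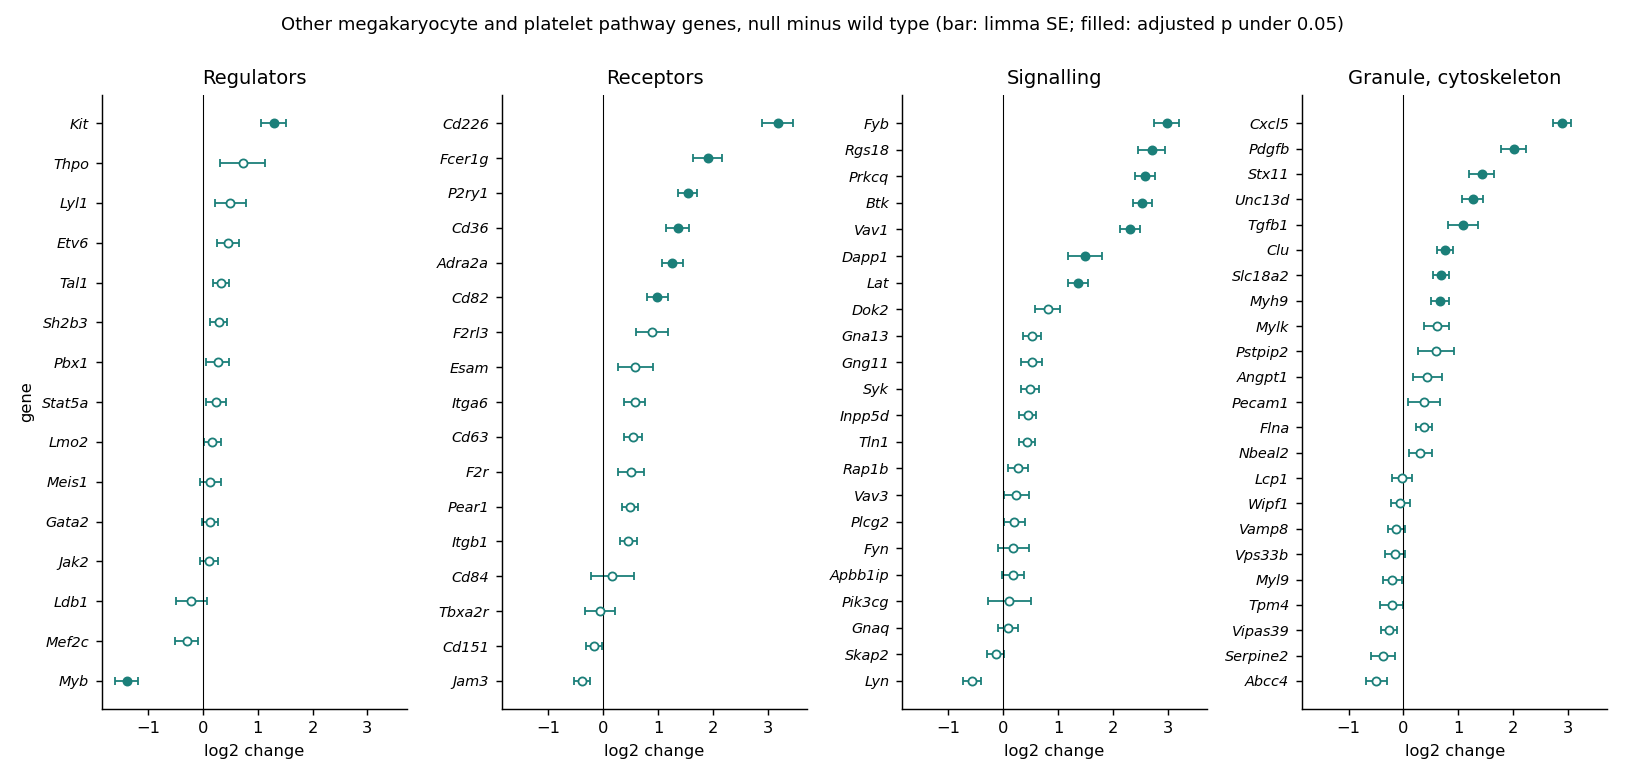
Log2 change (Arid3b-null minus wild type) with limma SE for 77 further genes of the megakaryocyte and platelet pathway in 4 groups, filled where the adjusted p was under 0.05. Filled points to the right number 22 and to the left 1 (Myb), and Cd226 is drawn at its fitted value although only a lower bound holds.

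Markers of other blood and vascular cells were read on the same arrays. The counts of each list stand against 6.60% rising and 3.83% falling among all genes tested. Of 16 measured erythroid genes 0 rose and 0 fell by limma, while 12 had an unadjusted p under 0.05, all upward. With normexp 7 of them rose and with array weights 9. The erythroid median was 0.96, but 0.61, 1.95 and -0.04 within slides 1, 2 and 3. Its summed linear level ran from 283 to 592 in wild-type and from 766 to 1199.9 in null pools, in units of the array's 75th percentile. Such sums, here and for the lists below, mostly follow the brightest probes and do not measure cell numbers. Those were the globins here, Itgam and Csf1r for macrophages, Cd34 and Cd93 for progenitors, and Egfl7 for endothelium. The lowest erythroid sum belonged to wild-type pool 2 and the highest to null pool 2, the same pools that lay outward for the members. On slide 3 the erythroid median was near 0 and the members' median was 1.38. The erythroid sum was nevertheless higher on that slide, 508 in wild-type pool 3 and 780 in null pool 3. The embryonic globin Hbb-y read 7.99, 6.96 and 7.57 against 8.28, 8.73 and 8.43 (adjusted p = 0.0679). The red cell factor Klf1 had an estimate of -0.23 (adjusted p = 0.753).

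Of 12 measured macrophage markers 1 rose, Laptm5 (1.81, SE 0.35, adjusted p = 0.0213), and 0 fell. That share (8.33%) was near the 6.60% of all genes, and without wild-type pool 2 or 3 the Laptm5 call ended. Their summed level was 6.65 to 12.7 in wild-type and 8.36 to 11.7 in null pools, and Timd4 and Spi1 stayed at background throughout. Of 6 measured mast cell and granulocyte genes 0 rose by limma, with 1 at an unadjusted p under 0.05, sums of 0.75 to 1.34 and 0.86 to 1.23, and Cpa3, Cma1 and Fcer1a not well above background anywhere. Endothelial cells share Vwf, Selp, Thbs1 and Fli1 with the members. Of 14 endothelial markers 2 rose, Sox17 (1.22, SE 0.16) and Erg (1.21, SE 0.22), and the sum was 47.1 to 50.8 in wild-type and 56.9 to 69.6 in null pools. The Erg call ended when the slide was a block (adjusted p = 0.055), and leaving out wild-type pool 2 or null pool 3 gave 1 rise, leaving out null pool 1 gave 4. Cdh5, the junction protein that defines endothelium, had an estimate of 0.33 (adjusted p = 0.313) and Pecam1 0.37 (adjusted p = 0.454).

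Among 10 haemogenic and progenitor genes 2 rose, Cd93 and Hlf, and 1 fell, Myb, with sums of 10.6 to 13.3 and 15.8 to 19.1. Neither rise passed once the slide was a block (adjusted p = 0.103 and 0.0651), 0 rose when wild-type pool 2 or null pool 3 was left out, and 1 when wild-type pool 3 or null pool 2 was. Of 10 measured visceral endoderm and hepatic genes 3 rose, Rbp4, Hnf4a and Afp, with sums of 2.39 to 3.14 in wild-type and 5.60 to 7.20 in null pools, and Alb stayed at background throughout. Without null pool 3 there were 5 rises. Of 7 measured trophoblast genes 1 rose, Ascl2 (2 rose without wild-type pool 2), and the sum was 5.55 to 15.4 in wild-type pools and 2.97, 28.3 and 57.3 in null pools 1, 2 and 3. The sum of null pool 1 lacks Gcm1, which had no value there, and cannot be compared with the others. Gcm1 read 3.22, 1.70 and 3.45 in wild-type pools and 4.62 and 4.75 in null pools 2 and 3. Tpbpa and Ctsq, 2 defining trophoblast markers, stayed at background throughout. Of 8 pharyngeal endoderm genes 0 rose and 1 fell, Nkx2-1, with sums of 3.78 to 4.19 and 3.78 to 4.07, and that call ended when the slide was a block (adjusted p = 0.149). Whether blood retained in the dissected hearts, or any of these cell types, had a part in the members' change was not tested.

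**Figure D4:**
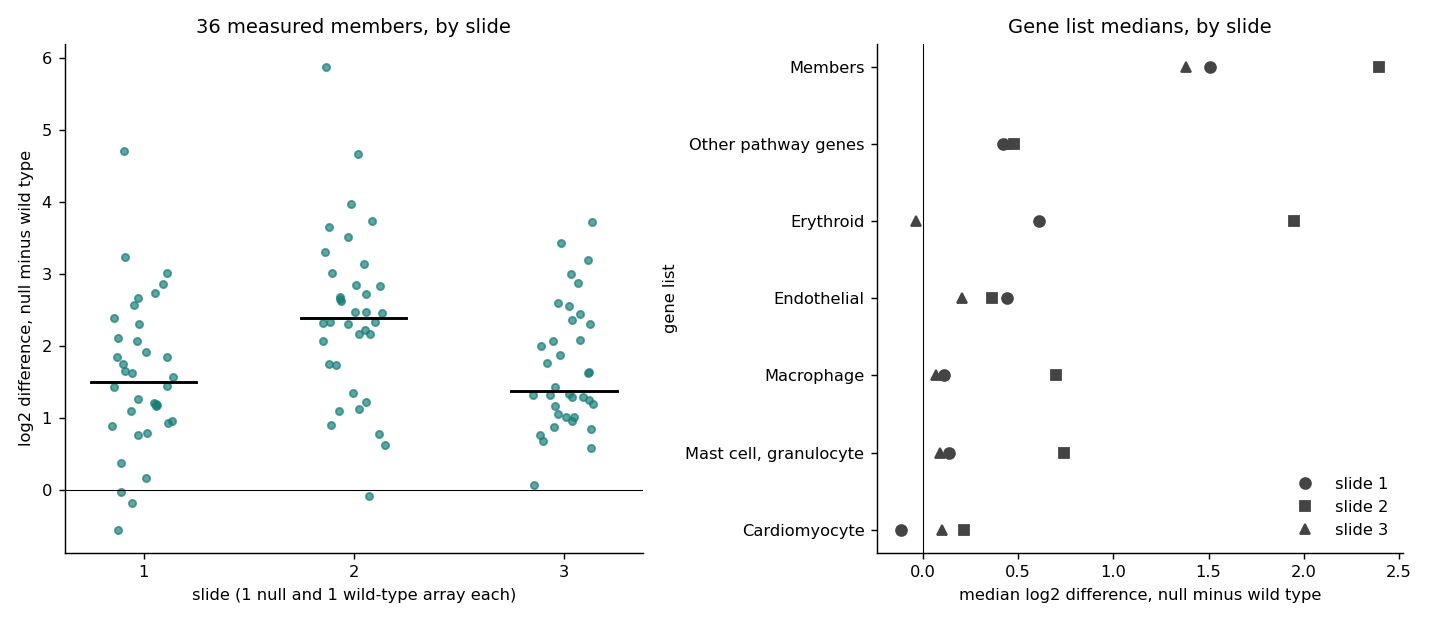
Left, the null minus wild-type log2 difference of each of the 36 measured members on each slide, with a line at the median (1.5, 2.39 and 1.38). Right, the median difference of the members, of the other pathway genes and of 5 marker lists on each slide, where the erythroid list spans -0.04 to 1.95 and the members 1.38 to 2.39.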

How the data were processed

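Each of the 6 arrays was scanned in 1 colour. The authors deposited intensity values that were background-subtracted but not scaled between arrays. Per the file headers they came from design 026655, read by Feature Extraction 10.7.3.1. The flags for well above background, saturation and outlying spots are also deposited scanner output. A deposited table of log2 values, with no stated method, tracked log2 scanner signal (Pearson's r above 0.999 across 24158 probes per array, which are not independent) and had nearly equal medians (6.76 to 6.77); it was an alternative only.

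From these, log2 signal minus each array's 75th percentile was taken, outlier spots were dropped, and probes well above background on at least 3 of 6 arrays were kept (26848 of 39429). RefSeq accessions gave symbols to 26424 probes. The brightest kept probe stood for a gene. limma 3.58.1 in R 4.3.3 compared the groups, with all adjusted p values from it, two-sided, over 21800 genes, and was tested on simulated data. Nothing says the pools came from separate litters, so p-values measure the spread between these pools. An exact permutation test of 3 against 3 cannot go below 0.1 and was not used. A probe not above background in a whole group is given as a bound, against the higher of its own signal and the lowest signal called well above background on each array.

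The members, lists and tests were chosen with earlier results of these data known. Every member is named, with up to 12 called genes of the pathway list by smallest p; Gata2, Tal1, Lmo2, Lyl1, Tbxa2r, F2r, F2rl3, Clu, Slc18a2, Myh9, Tgfb1, Kit, Hbb-y, Klf1, Cdh5, Pecam1, Myb and Prl3d1 were picked after their values were seen. An item of the pathway list is not reported here, and the list is counted without it. Alternatives were median scaling, quantile normalization, normexp (offset 50, on the median spot signal), the authors' table, the probe filter dropped or raised to all 6 arrays, outlying spots retained, averaging over probes, array weights, a robust trended prior, blocking on the slide, and omission of each pool.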

Additional observations from a re-analysis of the deposited data

How the results depend on the processing

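Over the 17 alternatives the number of members that rose ran from 22 to 33 and 0 fell in any. Of the 30 members that rose, 21 kept their call in every alternative in which they were measured, and none changed sign. Leaving out 1 pool gave 22 to 30 members and a median change of 1.69 to 2.05. The median was 1.37 with normexp, 2.14 with array weights and 1.75 with median scaling, where the median of all genes moved to -0.11. Called members whose fold normexp moved by over 1.5 times, with their log2 change under it, were F2rl2 (0.95), Ppbp (3.37), Tbxas1 (1.63), Gp6 (1.75), Tubb1 (1.14), F5 (1.42), Gp5 (1.40), F13a1 (0.89) and Runx1 (1.22), and their calls held. Keeping dim probes ended the calls of Gata1, Itga2b and Nfe2. Ptgs1, Selp and Rasgrp2 passed in 5, 2 and 1 alternatives. The Fli1 log2 change turned to -0.0554 with median scaling, and ran from -0.13 (without wild-type pool 3) to 0.28 (without null pool 1) with 1 pool left out, with -0.10 without null pool 3; the cause was not tested.

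Over all genes 2273 were called, against 3820 with array weights, 1037 when dim probes were kept, 731 with the slide as a replicate block and 836 to 1758 with 1 pool left out. Of them 1439 were higher, against 1093 of 2528 with median scaling. Other pathway genes that rose numbered 15 to 32. Same-numbered pools share a slide but deviated from their group means with correlations across genes of -0.41, -0.09 and -0.41. Wild-type pool 3 went best with null pool 1 (0.49). Deviations within groups of 3 constrain one another, so these values cannot show whether the pools were collected in pairs. Signals near background limit F2rl2, Selp and P2ry12.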
